A study of Mus musculus with 12 samples.

Results

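The transcripts of 10 genes used as macrophage markers, namely Adgre1, C1qa, C1qb, C1qc, Mrc1, Csf1r, Ms4a7, Mertk, Cd68 and Ms4a6d, were followed in RNA-seq libraries of sorted neutrophils. They were found by matching Ensembl identifiers to these symbols, and all 10 were among the 55335 genes listed in every library. The libraries come from 3 groups of 4 samples each. PyMT TANs are tumor-associated neutrophils from mammary tumors of mice that carry the polyoma virus middle T oncogene, driven by a mammary promoter. PyMT-Cxcr2-/- TANs come from tumors of mice that carry the same oncogene and lack the chemokine receptor Cxcr2 in the whole body. WT BM neutrophils come from the bone marrow of mice without the oncogene and with intact Cxcr2. All mice were of the FVB background, were kept under SOPF conditions (specific and opportunistic pathogen-free) and were 10 weeks old. In the study's methods, CD11b+ cells were enriched and then sorted as CD45+, CD11b+, Ly6G+ and negative for F4/80, the protein made from Adgre1, so 1 of the 10 genes encodes the antigen used to keep macrophages out. The labels do not say whether each sample is a separate mouse or a pool, and the p-values below measure the spread between these samples.

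Macrophages take up dead cells and debris, secrete complement components and depend on growth factors from their tissue. C1qa, C1qb and C1qc encode the 3 chains of C1q, the molecule that starts the classical complement pathway and that is made largely by macrophages. Csf1r is the receptor for CSF1 and IL34, the growth factors on which most macrophages depend, Mertk is a receptor for dead cells bridged by GAS6 or PROS1, and Mrc1 is the mannose receptor. Neutrophils are short-lived granulocytes that leave the bone marrow as nearly mature cells and are set apart from macrophages by Ly6g and by their granule proteins.

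Libraries held 25032704 to 51351569 counts on genes. Levels are given in CPM (counts divided by the library total and scaled to a common size), with TMM factors. A level of 3 counts corresponds to 0.0584 to 0.12 CPM on library totals alone, without these factors, so it is on a slightly different scale. Such floors and the counting intervals below cover counting error only. Cxcr2 was at 1029.5 to 1535.9 CPM in PyMT TANs and at 1818 to 2250 CPM in WT BM neutrophils, against 8.97 to 10.1 CPM in PyMT-Cxcr2-/- TANs, so the libraries carried the Cxcr2 genotype of their labels. The oncogene was not checked. The labelled cell type was checked with 12 neutrophil markers. All 12 were counted in every library, with a summed level of 11272 to 17983 CPM in PyMT TANs, 20646 to 36045 CPM in PyMT-Cxcr2-/- TANs and 102870 to 144426 CPM in WT BM neutrophils. This shows that the markers were present, and does not show how pure the sorted cells were. Ly6g, the gene of the sorting antigen, was at 20.01 to 48.4 CPM in PyMT TANs, 106.4 to 182.8 CPM in PyMT-Cxcr2-/- TANs and 477.0 to 655.2 CPM in WT BM neutrophils. In PyMT TAN replicate 4, Ly6g (20.01 CPM) was below all 10 macrophage markers, of which Mertk was the lowest at 49.7 CPM. In the other TAN libraries it lay above some of them and below others, and in WT BM libraries above all 10. These levels are in CPM without regard to gene length. Csf3r, the receptor for granulocyte colony-stimulating factor, did not pass the thresholds in any of the 3 comparisons and lay between 2938 and 5449 CPM in all 12 libraries.

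All 10 macrophage marker transcripts were higher in TANs of both genotypes than in WT BM neutrophils, and none passed the thresholds between the TANs of the 2 genotypes. A gene was called at a Benjamini-Hochberg adjusted p under 0.05 over all genes tested in edgeR's quasi-likelihood test together with a fold change of at least 1.5. In PyMT TANs against WT BM neutrophils, 10 of 10 members were called higher, beside 30.1% of all genes tested, with a median log2 fold change of 6.42 over the members and 0.0872 over all genes. In PyMT-Cxcr2-/- TANs against WT BM neutrophils, 10 of 10 members were called higher, beside 34.4% of all genes, with a median of 5.83 over the members and 0.0863 over all genes. These comparisons share the WT BM libraries and are therefore not independent. In each of them the 4 TAN libraries lay above the 4 WT BM libraries for every member, as for 28.4% of all genes in the first comparison and 32.5% in the second. In bulk RNA, a change in the number of cells of a type and a change in RNA per cell cannot be told apart. In the study's methods, tumors were minced and digested with enzymes from a kit, whereas marrow was spun out of the leg bones. Tissue, oncogene and preparation thus differ together between TANs and WT BM neutrophils, and their parts cannot be told apart.

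**Figure D1:**
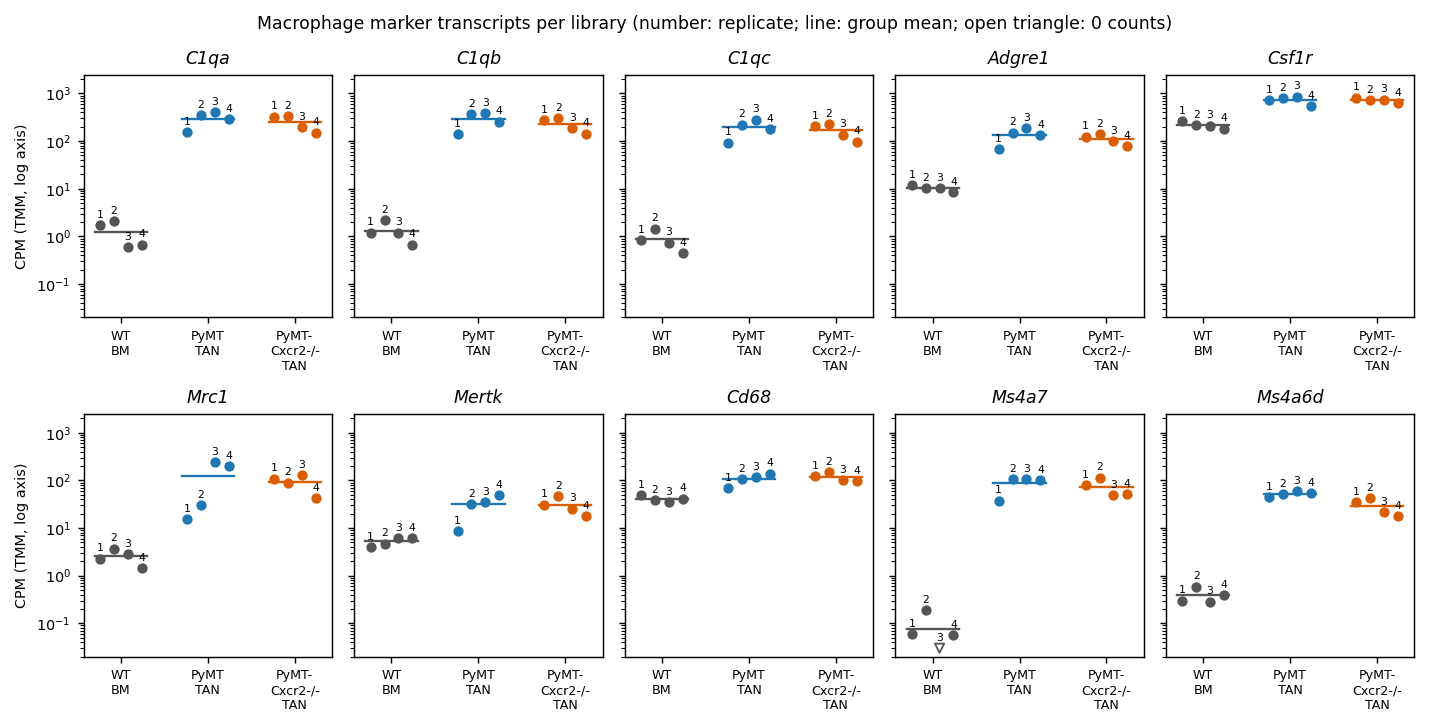
Level of each of the 10 transcripts in CPM on a log axis (TMM-scaled), with 1 point per library, the replicate number above it and a line at the group mean. The open triangle marks the WT BM library with 0 counts of Ms4a7. All TAN points lie above the WT BM points of the same gene, and replicate 1 is the lowest PyMT TAN library in 9 of 10 panels.

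The 3 C1q genes lie next to each other on chromosome 4, on the minus strand, within 18.7 kb (mm10, 136880129 to 136898803), in the order C1qb, C1qc and C1qa along the coordinates. C1qb spans 136880129 to 136886187, C1qc 136889804 to 136893065 and C1qa 136895917 to 136898803, and each has 3 exons. To show the starts of genes that moved together and of 1 gene with a lower r to them, the 250 bases before the RefSeq start sites of C1qb, C1qc and Mrc1 are given below (GRCm38.p6, the mm10 assembly). Promoters of 6 of the 10 members were matched in the RefSeq table. The RefSeq start sites differ from the ends of the gene spans given in this report, which come from GENCODE M21. The C1qc stretch, 136892915 to 136893164, overlaps the gene span that ends at 136893065. The Mrc1 stretch ends at 14229413, past the start of its gene span at 14229392. Positions of motifs below are counted from the RefSeq start sites. Capitals mark GAGGAA, the PU box bound by the myeloid factor PU.1, on either strand (as TTCCTC on the other). GAGGAA was found on either strand in the same 250 bases of 23.3% of the 32851 promoters in that table, so a match is a description only.
C1qb, minus strand, chr4:136886201-136886450: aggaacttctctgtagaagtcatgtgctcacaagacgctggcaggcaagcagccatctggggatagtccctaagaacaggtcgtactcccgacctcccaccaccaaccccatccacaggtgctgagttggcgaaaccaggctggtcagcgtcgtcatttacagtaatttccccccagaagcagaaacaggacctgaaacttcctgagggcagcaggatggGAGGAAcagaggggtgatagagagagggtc
C1qc, minus strand, chr4:136892915-136893164: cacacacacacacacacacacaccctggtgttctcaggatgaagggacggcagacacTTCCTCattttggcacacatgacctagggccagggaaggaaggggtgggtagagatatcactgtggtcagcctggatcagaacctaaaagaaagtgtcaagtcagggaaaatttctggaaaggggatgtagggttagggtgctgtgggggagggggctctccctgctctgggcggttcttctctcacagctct
Mrc1, plus strand, chr2:14229164-14229413: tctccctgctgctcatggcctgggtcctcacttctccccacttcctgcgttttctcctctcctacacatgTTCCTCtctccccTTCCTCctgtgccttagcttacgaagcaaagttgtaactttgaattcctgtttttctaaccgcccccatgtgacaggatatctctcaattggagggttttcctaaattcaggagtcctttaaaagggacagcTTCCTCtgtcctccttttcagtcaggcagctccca
The C1qb stretch holds 1 PU box at bases -30 to -25 from the start site. The C1qc stretch holds 1 PU box on the opposite strand at bases -193 to -188, and the Mrc1 stretch holds 3 on the opposite strand, of which the nearest is at bases -35 to -30. Of the other matched promoters, which are not printed, that of Cd68 holds 1 PU box on the gene strand at bases -225 to -220. None was found for Mertk or for Ms4a7, so the stretches printed are not all of the matched members.

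C1qa was at 155.7, 350.5, 399.0 and 286.4 CPM in the PyMT TAN libraries of replicates 1 to 4, at 327.8, 339.1, 196.7 and 150.6 CPM in the PyMT-Cxcr2-/- TAN libraries and at 1.71, 2.05, 0.60 and 0.67 CPM in the WT BM libraries. C1qb was at 140.7, 362.2, 381.2 and 256.7 CPM in PyMT TANs, at 280.4, 309.5, 186.4 and 144.4 CPM in PyMT-Cxcr2-/- TANs and at 1.20, 2.18, 1.20 and 0.67 CPM in WT BM neutrophils. C1qc was at 92.8, 222.3, 283.3 and 177.9 CPM in PyMT TANs, at 208.9, 227.8, 136.5 and 98.0 CPM in PyMT-Cxcr2-/- TANs and at 0.84, 1.46, 0.74 and 0.45 CPM in WT BM neutrophils. PyMT TAN replicate 1 and PyMT-Cxcr2-/- TAN replicate 4 were the lowest of their groups for all 3 chains, and the TANs of the 2 genotypes overlapped. The log2 fold change of PyMT TANs against WT BM neutrophils was 7.99 ± 0.48 for C1qa, 7.86 ± 0.45 for C1qb and 7.90 ± 0.46 for C1qc (log2 fold change ± SE throughout), with an adjusted p by edgeR of 2.36e-07 for C1qa. Against the same controls, PyMT-Cxcr2-/- TANs were higher by 7.79 ± 0.48, 7.59 ± 0.38 and 7.72 ± 0.40. Between the genotypes, the log2 fold changes of PyMT-Cxcr2-/- against PyMT TANs were -0.27, -0.35 and -0.25, with 95% intervals of -0.97 to 0.42, -1.05 to 0.35 and -1.01 to 0.50, and no chain passed the test.

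The proportions of the 3 chains differed little between TAN libraries. Per kb of exon, the C1qa count was 1.11 ± 0.071 times that of C1qb in PyMT TANs and 1.14 ± 0.059 times in PyMT-Cxcr2-/- TANs (mean ± SD, n = 4 each). The difference was 0.0328, with p = 0.571 in a two-sided exact permutation test, for which 0.0286 is the smallest p that 4 against 4 libraries allow. The C1qc count per kb was 0.382 ± 0.031 times that of C1qb in PyMT TANs and 0.407 ± 0.017 times in PyMT-Cxcr2-/- TANs, a difference of 0.0258 (p = 0.229, exact permutation test). In the 3 WT BM libraries with at least 20 counts of each chain, the C1qc ratio was 0.374 ± 0.023 (SD), and the C1qa ratio spread from 0.523 to 1.49 on 21 to 66 counts of C1qa. The C1qc ratio of the 11 libraries used lay between 0.346 and 0.420, and that of C1qa between 1.01 and 1.22 in the 8 TAN libraries.

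Adgre1 (chromosome 17, 57358691 to 57483527, plus strand) encodes F4/80, an adhesion receptor on the surface of mature mouse macrophages. It was at 69.2, 150.6, 187.4 and 135.2 CPM in PyMT TANs, at 124.1, 142.9, 100.9 and 78.0 CPM in PyMT-Cxcr2-/- TANs and at 12.1, 10.3, 10.3 and 8.64 CPM in WT BM neutrophils. The RNA of the antigen that the sort selected against was therefore counted in every library, with 309 to 6583 counts, and was higher in TANs than in WT BM neutrophils without overlap. Against WT BM neutrophils, the log2 fold change of Adgre1 was 3.81 ± 0.29 in PyMT TANs and 3.56 ± 0.19 in PyMT-Cxcr2-/- TANs, and it was -0.32 between the genotypes (95% interval -0.94 to 0.29). Its order across the 8 TAN libraries was close to that of C1qa, with replicate 3 the highest and replicate 1 the lowest PyMT TAN library and replicates 2 and 4 the highest and lowest PyMT-Cxcr2-/- TAN libraries for both genes.

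Csf1r (chromosome 18, 61100598 to 61132149, plus strand) had the highest CPM of the members in every library and a much smaller difference between TANs and bone marrow. It was at 717, 812, 860 and 542 CPM in PyMT TANs, at 822, 732, 740 and 632 CPM in PyMT-Cxcr2-/- TANs and at 264, 216, 213 and 184 CPM in WT BM neutrophils. The TAN libraries were all above the WT BM libraries, and the 2 TAN groups overlapped, with PyMT TAN replicate 4 the lowest of the 8. Its log2 fold change was 1.82 ± 0.17 in PyMT TANs and 1.86 ± 0.13 in PyMT-Cxcr2-/- TANs, and -0.04 between the genotypes (95% interval -0.40 to 0.32). With a correction for GC content and gene length, the change in PyMT-Cxcr2-/- TANs was 1.11. Of the exon bases of Csf1r, 873 (15.1%) are shared with Hmgxb3 on the opposite strand, and since the strand setting of the counting is not given in the sources used here, the count of Csf1r is uncertain to that extent.

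Mrc1 (chromosome 2, 14229392 to 14332057, plus strand), the mannose receptor that takes up glycoproteins, varied more between PyMT TAN libraries than any other member. It was at 15.7, 30.8, 244.7 and 201.5 CPM in PyMT TANs, at 109.1, 89.6, 129.1 and 42.7 CPM in PyMT-Cxcr2-/- TANs and at 2.28, 3.70, 2.80 and 1.45 CPM in WT BM neutrophils. PyMT TAN replicates 1 and 2 lay below the 4 PyMT-Cxcr2-/- TAN libraries and replicates 3 and 4 above them, a spread of 15.6-fold from lowest to highest in PyMT TANs against 3.03-fold in PyMT-Cxcr2-/- TANs. Relative to WT BM neutrophils, the log2 fold change of Mrc1 was 5.70 ± 0.87 in PyMT TANs (5.10 without PyMT TAN replicate 3) and 5.31 ± 0.41 in PyMT-Cxcr2-/- TANs. Between the genotypes it was -0.46, with a 95% interval of -2.29 to 1.38, the widest of the members.

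Mertk (chromosome 2, 128698956 to 128802894, plus strand) was at 8.67, 32.2, 35.4 and 49.7 CPM in PyMT TANs, at 30.9, 47.6, 25.6 and 17.9 CPM in PyMT-Cxcr2-/- TANs and at 4.01, 4.73, 6.09 and 6.23 CPM in WT BM neutrophils. The lowest TAN library, PyMT replicate 1, was close to the WT BM libraries without overlapping them. Mertk differed from WT BM neutrophils by a log2 fold change of 2.67 ± 0.44 in PyMT TANs and 2.66 ± 0.28 in PyMT-Cxcr2-/- TANs, and it was -0.09 between the genotypes (95% interval -1.09 to 0.92). The same correction gave 2.06 for Mertk in PyMT-Cxcr2-/- TANs.

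Cd68 (chromosome 11, 69664213 to 69666153, minus strand), a glycoprotein of late endosomes and lysosomes that is abundant in macrophages, differed least between TANs and bone marrow. It was at 68.7, 106.4, 116.7 and 139.4 CPM in PyMT TANs, at 124.3, 152.2, 102.1 and 97.6 CPM in PyMT-Cxcr2-/- TANs and at 48.4, 38.1, 35.0 and 41.4 CPM in WT BM neutrophils. Its log2 fold change was 1.49 ± 0.21 in PyMT TANs and 1.67 ± 0.15 in PyMT-Cxcr2-/- TANs. It was the 1 member with a positive log2 fold change between the genotypes, 0.11 with a 95% interval of -0.37 to 0.58, and it did not pass the test.

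Ms4a7 and Ms4a6d belong to a family of membrane proteins that cross the membrane 4 times and lie in a cluster on chromosome 19, both on the minus strand (11321039 to 11336146 and 11586604 to 11604849). Ms4a7 was at 37.6, 108.1, 106.5 and 99.7 CPM in PyMT TANs and at 81.1, 114.1, 48.3 and 52.3 CPM in PyMT-Cxcr2-/- TANs. In the WT BM libraries it had 2, 6, 0 and 2 counts, the lowest level of any member in bone marrow, and WT BM replicate 3 had none. The ratio of the pooled counts was 1159 for PyMT TANs (95% counting interval 630 to 2417) and 982 for PyMT-Cxcr2-/- TANs (534 to 2049), over only 10 counts in bone marrow, so the log2 fold changes of 10.25 ± 0.58 and 10.04 ± 0.51 rest on those 10 counts. With 1 library left out they ran from 9.79 to 11.08 and from 9.62 to 10.90, and both were highest without WT BM replicate 2, which holds 6 of the 10 counts. Between the genotypes, the log2 fold change of Ms4a7 was -0.29 (95% interval -1.07 to 0.49).

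Ms4a6d was at 45.3, 51.9, 58.8 and 54.7 CPM in PyMT TANs, at 35.6, 43.0, 21.8 and 18.1 CPM in PyMT-Cxcr2-/- TANs and at 0.30, 0.59, 0.29 and 0.39 CPM in WT BM neutrophils. It was the 1 member whose TAN groups did not overlap, with every PyMT-Cxcr2-/- TAN library below every PyMT TAN library, as for 5.05% of all genes tested. Between the genotypes its log2 fold change was -0.87 ± 0.25 (95% interval -1.41 to -0.32), with an adjusted p of 0.106 in edgeR's quasi-likelihood test, so it was not called. It was called with all 12 libraries in one fit (edgeR adjusted p = 0.0484) and with DESeq2 (adjusted p = 0.0384), and not in the other alternatives. The log2 fold change against WT BM neutrophils was 7.15 ± 0.25 in PyMT TANs and 6.36 ± 0.35 in PyMT-Cxcr2-/- TANs. Ms4a6d has the close relatives Ms4a6b and Ms4a6c in the same cluster, and the assignment of reads that these genes could share is uncertain.

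In PyMT-Cxcr2-/- against PyMT TANs, 0 of 10 members were called, beside 1.98% of all genes tested in either direction, and DESeq2 called 1, Ms4a6d. At an unadjusted p under 0.05, Ms4a6d alone passed in edgeR. The median log2 fold change of the members was -0.28, against -0.07 over all genes. The 95% intervals of all members but Ms4a6d include 0, and the narrowest, that of Csf1r, still allows changes of -0.40 to 0.32.

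**Figure D2:**
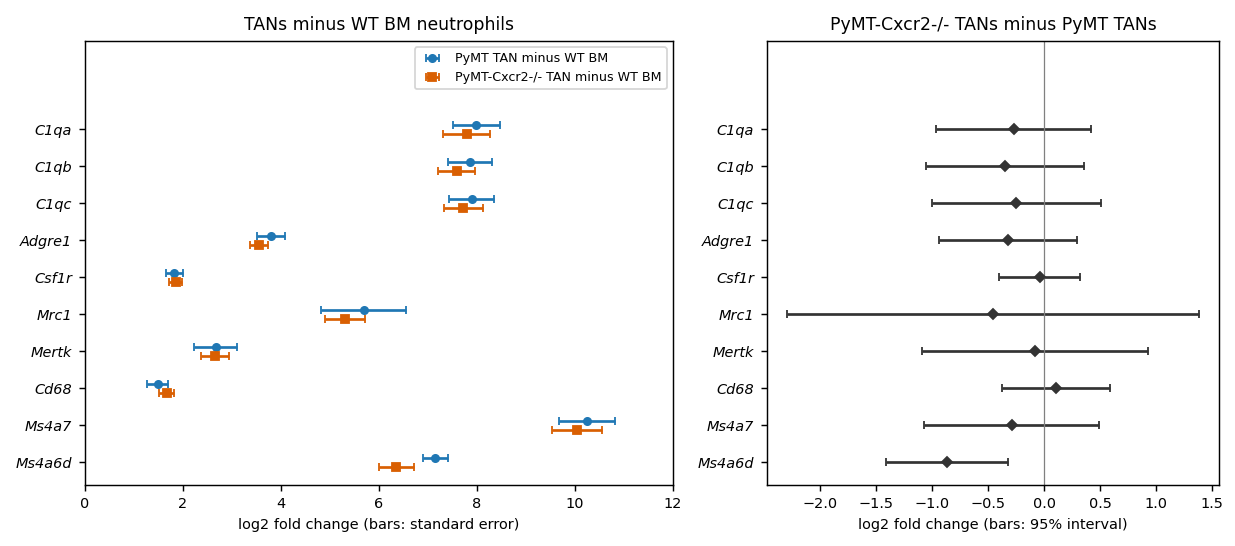
Left, log2 fold changes of the 10 members in PyMT TANs (circles) and PyMT-Cxcr2-/- TANs (squares) against the same WT BM libraries, with SE bars. Right, log2 fold changes of PyMT-Cxcr2-/- against PyMT TANs with 95% intervals, where the interval of Ms4a6d lies wholly below 0 and that of Mrc1 is the widest (-2.29 to 1.38).

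Levels of different genes were compared as CPM per kb of exon. In PyMT TANs the order was C1qa (286.5 ± 101.4 CPM per kb, mean ± SD, n = 4), C1qb (262.1 ± 101.8), Csf1r (126.9 ± 24.3), C1qc (100.5 ± 41.5), Cd68 (85.7 ± 23.5), Adgre1 (41.9 ± 15.3), Ms4a6d (30.4 ± 3.26), Ms4a7 (19.8 ± 7.59), Mrc1 (19.3 ± 18.4) and Mertk (7.26 ± 3.92). The ranges of 1 SD around the mean of neighbours overlapped except between C1qb and Csf1r and between Cd68 and Adgre1. The order in PyMT-Cxcr2-/- TANs was the same except that Cd68 (94.7 ± 19.9 CPM per kb) stood before C1qc (86.9 ± 31.6), within their spread. In WT BM neutrophils the order was another one, with Csf1r (37.9 ± 5.77 CPM per kb) and Cd68 (32.4 ± 4.58) far ahead of Adgre1 (3.19 ± 0.43), and with C1qa (1.21 ± 0.71) and C1qb (1.21 ± 0.58) at the level of Mertk (1.21 ± 0.25). Csf1r and Cd68, the members most abundant in bone marrow neutrophils, were those with the smallest difference between TANs and bone marrow.

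Among 12 ligands and partners of the members, 8 were tested in PyMT TANs against WT BM neutrophils. Of these, 6 were called higher and 2 lower, beside 30.1% of all genes called higher and 23.2% called lower. The counts in PyMT-Cxcr2-/- TANs were also 6 and 2, beside 34.4% of all genes called higher and 25.1% called lower. Csf1, the ligand of CSF1R, was at 873.9, 1016.5, 635.8 and 475.3 CPM in PyMT TANs, at 382.9, 322.8, 520.5 and 469.3 CPM in PyMT-Cxcr2-/- TANs and at 53.0 to 95.1 CPM in WT BM neutrophils. Il34, the other ligand of CSF1R, was at most at 0.685 CPM in any library and was not tested. Of the bridging ligands of MERTK, Gas6 was called higher with log2 fold changes of 8.03 ± 0.95 in PyMT TANs and 8.16 ± 0.52 in PyMT-Cxcr2-/- TANs, and Pros1 with 6.06 ± 0.58 and 5.52 ± 0.35. The related receptors Axl (6.12 ± 0.40 and 6.08 ± 0.36) and Tyro3 (5.87 ± 1.25 and 6.26 ± 0.99) were called higher as well. Downstream of C1q, the complement component C4b was called higher (8.68 ± 0.80 and 7.92 ± 0.56), the protease gene C1ra was called lower (-2.23 ± 0.82 and -1.29 ± 0.28), and C1s1 and C2 had too few counts to be tested. Spi1, which encodes PU.1, was called lower (-1.12 ± 0.17 and -0.64 ± 0.13). Between the genotypes, 0 of the 9 genes tested were called by edgeR, beside 1.98% of all genes, with 2 at an unadjusted p under 0.05 and 1 called by DESeq2. The smallest adjusted p by edgeR was 0.0913, for Csf1 with a log2 fold change of -0.86 ± 0.23.

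Of 30 other macrophage genes, 26 were tested in PyMT TANs against WT BM neutrophils, with 20 called higher and 1 lower, and 28 in PyMT-Cxcr2-/- TANs, with 22 called higher and 2 lower. Gas6 and Axl stand both in this list and among the ligands and partners above, so their calls count in both. Over all genes, 30.1% were called higher and 23.2% lower in PyMT TANs, and 34.4% and 25.1% in PyMT-Cxcr2-/- TANs. These shares also stand beside the counts of Ms4a genes below. The median log2 fold changes of the other macrophage genes were 3.36 and 3.56. Cx3cr1, a chemokine receptor of monocytes and macrophages, was called higher with log2 fold changes of 7.09 ± 0.34 and 7.18 ± 0.33, and the lipid carrier Apoe with 6.74 ± 0.41 and 6.66 ± 0.39. Lyz2, the lysozyme gene that neutrophils share, was called lower in both comparisons (-3.03 ± 0.32 and -2.03 ± 0.15), and Lyve1 in PyMT-Cxcr2-/- TANs (-1.47 ± 0.30). Trem2 was at 0 counts in 11 of 12 libraries. Between the genotypes, 0 of 28 tested were called by edgeR, beside 1.98% of all genes, with 3 at an unadjusted p under 0.05 and 1 called by DESeq2. Of the 12 other Ms4a genes, 4 of the 7 tested in PyMT TANs and 4 of the 6 tested in PyMT-Cxcr2-/- TANs were called higher, namely Ms4a4a, Ms4a4c, Ms4a6b and Ms4a6c, and Ms4a3, a gene of early granulocyte and monocyte precursors, was called lower in both. Between the genotypes, 0 of the 7 tested were called by edgeR, beside 1.98% of all genes, or by DESeq2, and 0 had an unadjusted p under 0.05.

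Markers of other cells moved with the same contrast, and their part in the values of the members was not tested. Against WT BM neutrophils, 30.1% of all genes were called higher and 23.2% lower in PyMT TANs, and 34.4% and 25.1% in PyMT-Cxcr2-/- TANs. These shares stand beside all counts against WT BM neutrophils in this paragraph and the next. Of the neutrophil markers, 10 of 12 were called lower in PyMT TANs and 11 of 12 in PyMT-Cxcr2-/- TANs against WT BM neutrophils, and 7 of 12 were called higher in PyMT-Cxcr2-/- than in PyMT TANs, with Cxcr2 called lower, beside 1.38% of all genes called higher and 0.596% called lower. Of 9 epithelial markers, the 6 tested were called higher in both TAN groups. Their summed level was 47.6, 60.6, 321.1 and 445.2 CPM in PyMT TANs and 244.5, 312.6, 84.1 and 119.5 CPM in PyMT-Cxcr2-/- TANs, against at most 0.514 CPM in WT BM neutrophils, where Krt8, Krt5, Krt14, Csn3 and Csn2 were at 0 in all 4 libraries. Of 6 monocyte markers, 3 were called higher and 3 lower in PyMT TANs, and 3 higher and 2 lower in PyMT-Cxcr2-/- TANs. Their sum was 314.8 to 879.2 CPM in PyMT TANs, 845.8 to 1079 CPM in PyMT-Cxcr2-/- TANs and 2898 to 3770 CPM in WT BM neutrophils. Chil3 (2184 to 2938 CPM) and Ly6c2 (641 to 850 CPM) made up nearly all of the WT BM sum. Ccr2, F13a1 and Fn1 went the other way. Their means were 61.4, 101.2 and 283.7 CPM in PyMT TANs and 65.4, 87.8 and 504.1 CPM in PyMT-Cxcr2-/- TANs. The mean of F13a1 hides a wide spread. Across replicates 1 to 4, F13a1 was at 16.1, 14.8, 214.5 and 159.6 CPM in PyMT TANs. In PyMT-Cxcr2-/- TANs it was at 110.6, 88.7, 116.7 and 35.2 CPM. The WT BM means of Ccr2, F13a1 and Fn1 were 4.48, 7.67 and 18.7 CPM. The 6 fibroblast markers summed to 1.98 to 13.4, 2.56 to 39.3 and 0.224 to 1.90 CPM in these groups, with 3 of 4 tested and 5 of 5 tested called higher in the TANs. The 7 dendritic cell markers summed to 13.4 to 22.1, 15.5 to 18.2 and 5.51 to 7.83 CPM, with 4 of 7 and 5 of 7 called higher.

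The 10 members together summed to 1351 to 2673 CPM in PyMT TANs, 1332 to 2197 CPM in PyMT-Cxcr2-/- TANs and 243.7 to 335.1 CPM in WT BM neutrophils. The 7 T and NK cell markers summed to 14.8 to 30.6 CPM in PyMT TANs, 24.9 to 44.3 CPM in PyMT-Cxcr2-/- TANs and 210.4 to 245.9 CPM in WT BM neutrophils. Nearly all of the WT BM sum was Cd3d (205.9 to 239.8 CPM), while Cd3e was at most at 0.389 CPM and Cd8a at most at 0.180 CPM there. In each TAN group 1 was called higher, Cd4, and 2 of 4 and 3 of 5 tested were called lower. The 5 B cell markers summed to at most 23.1 CPM in any library, with 0 of 5 called in PyMT TANs by edgeR (2 at an unadjusted p under 0.05 and 2 called by DESeq2) and 1 of 5, Cd79a, called lower in PyMT-Cxcr2-/- TANs. The 5 eosinophil, basophil and mast cell markers summed to 97.5 to 175.4 CPM in PyMT TANs, 46.6 to 64.4 CPM in PyMT-Cxcr2-/- TANs and 17.1 to 22.3 CPM in WT BM neutrophils, nearly all of it Siglecf. Siglecf was at 174.8, 126.5, 138.7 and 97.2 CPM in PyMT TANs, 46.4 to 64.3 CPM in PyMT-Cxcr2-/- TANs and 14.8 to 18.7 CPM in WT BM neutrophils, and in PyMT TAN replicate 1 it exceeded every member but Csf1r. It was called higher in both TAN groups and lower in PyMT-Cxcr2-/- than in PyMT TANs, while Prg2, Epx and Mcpt8 had too few counts to be tested. The 4 endothelial markers summed to at most 33.6 CPM, with 2 called higher in each TAN group.

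The members were next compared library by library within the TAN groups. Each log2 CPM was taken as its deviation from the mean of its genotype, so that a difference between genotypes adds nothing, and Pearson's r was computed over the 8 TAN libraries for each of the 45 pairs of members, with an exact permutation test that rearranges libraries within each genotype (576 arrangements) and adjusted p-values over the 45 pairs. The 4 WT BM libraries are too few for a correlation. PyMT TAN replicate 1 was the lowest of its group for 9 of 10 members and replicate 3 the highest for 7, while PyMT-Cxcr2-/- TAN replicate 4 was the lowest for 9 and replicate 2 the highest for 8. The libraries are shared by all pairs, so that the pairs are not independent of each other.

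**Figure D3:**
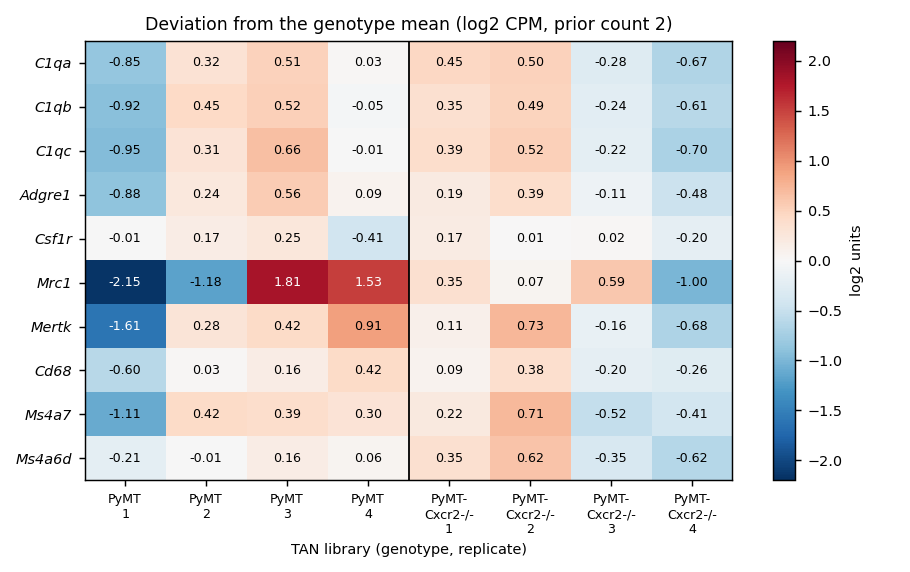
Deviation of each member from the mean of its genotype in each of the 8 TAN libraries, in log2 CPM, with the value printed in each cell. PyMT replicate 1 is below its group mean for all 10 members, and the row of Mrc1 runs from -2.15 to 1.81.

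The median r over the 45 pairs was 0.79, from -0.10 to 0.99, and 21 pairs had an adjusted p under 0.05. The 3 C1q chains had r from 0.990 to 0.993, and with Adgre1 the 6 pairs had r from 0.965 to 0.993, each with p = 0.00174, the smallest that the arrangements can give, and an adjusted p of 0.0112 in the exact permutation test. Spearman's rho of these 6 pairs was 0.976 to 1 (adjusted p = 0.0223, exact permutation test). Ms4a7 followed them with r from 0.91 to 0.93, and Mertk and Cd68 followed each other with r = 0.977 (rho = 0.976). Ms4a6d had lower r, from 0.63 to 0.83, with the 7 members other than Mrc1 and Csf1r, and all 7 pairs had an adjusted p under 0.05 in the exact permutation test. None of the 7 pairs passed by Spearman's rho. Of the 17 pairs that hold Csf1r or Mrc1, 0 had an adjusted p under 0.05 in the exact permutation test, against 21 of the 28 other pairs. The r of Csf1r was -0.10 to 0.50 (rho 0.05 to 0.67, highest with C1qa and C1qc) and that of Mrc1 -0.04 to 0.76 (rho 0.21 to 0.67), and Mrc1 against Csf1r gave -0.04 (rho 0.26, adjusted p = 0.977, exact permutation test).

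**Figure D4:**
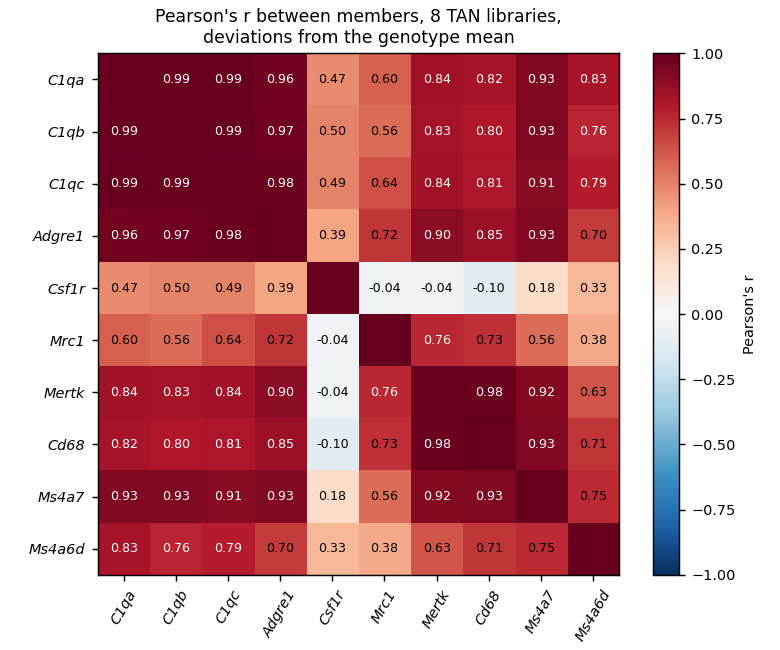
Pearson's r for each pair of members over the 8 TAN libraries, on deviations from the genotype mean, coloured from -1 to 1. The C1q chains and Adgre1 form a block above 0.96, and the row of Csf1r stays at or below 0.50.

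These relations were recomputed without the 2 libraries farthest from the median of the first gene of each pair, for most pairs PyMT TAN replicate 1 and PyMT-Cxcr2-/- TAN replicate 4. The r of the 3 C1q pairs stayed at 0.963 to 0.972 and that of the 3 pairs of Adgre1 with a C1q chain at 0.906 to 0.974, and Mertk and Cd68 gave 0.982. With 3 libraries of each genotype left, p = 0.0278 is the smallest that the exact permutation test allows for most pairs, and no pair had an adjusted p under 0.05. Other relations rested on these libraries, as r fell to 0.315 for Adgre1 and Mertk and to 0.191 for C1qb and Mertk, and C1qb and Mrc1 changed from 0.56 to -0.31. Without PyMT TAN replicate 1 alone, 0 pairs had an adjusted p under 0.05, with C1qa and C1qb at r = 0.984 and an adjusted p of 0.0521 in the exact permutation test. Leaving out 1 library also leaves fewer arrangements than 576 and raises the smallest p, so this count of 0 does not by itself show that r fell. The low r of Csf1r depended on PyMT TAN replicate 4, the library with the lowest Csf1r. Without it, the 9 pairs of Csf1r had r from 0.643 with Ms4a7 to 0.857 with C1qa, and its r with Mertk was 0.724 in place of -0.04. None of these 9 had an adjusted p under 0.05 (lowest 0.0558, exact permutation test). The r of Mrc1 depended on single libraries too, with a median over its 9 pairs of 0.80 (highest 0.888, with Mertk) without PyMT TAN replicate 2 and of 0.30 without replicate 1, and 0 of its pairs passed in either case.

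**Figure D5:**
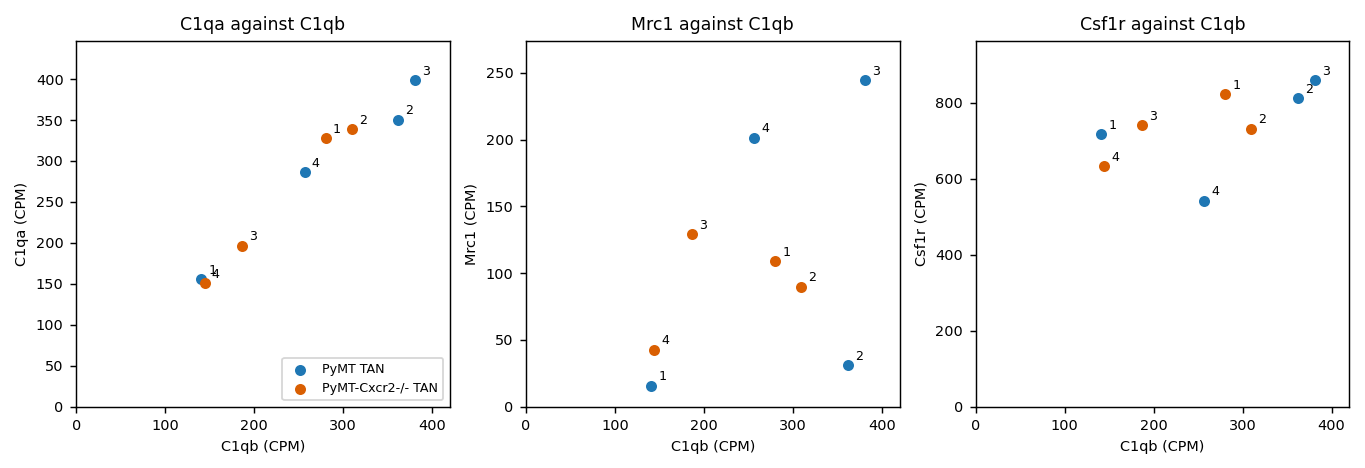
C1qa, Mrc1 and Csf1r against C1qb in CPM, with 1 point per TAN library and the replicate number beside it. C1qa follows C1qb along 1 line in both genotypes, whereas PyMT TAN replicate 2 has 362.2 CPM of C1qb with 30.8 CPM of Mrc1, and replicate 4 has 256.7 CPM of C1qb with 201.5 CPM of Mrc1.

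The genes that are no members and were most like the mean of the 10 members over the 8 TAN libraries were Dusp3, Fblim1, Gpam, Prune2, Fzd4, Mrps2, Cd302, Ocrl, Luzp1 and Hexa, out of 11637 genes compared, with r from 0.999 for Dusp3 to 0.988 for Hexa. These are the highest of many values, so no p is given. The mean was taken without scaling the members, so those with large deviations weigh more in it. The deviations of Mrc1 ran from -2.15 to 1.81, against -0.41 to 0.25 for Csf1r. Dusp3, a dual-specificity phosphatase, was at 9.43 to 35.7 CPM in TANs and at a mean of 0.433 CPM in WT BM neutrophils, whereas Hexa, a lysosomal hexosaminidase, was at 84.5 to 166.4 CPM in TANs and at 195.1 CPM in WT BM neutrophils. Cd302 is a C-type lectin receptor, and Fzd4 is a receptor for Wnt proteins. In a further comparison chosen after seeing the data, the genes most like C1qb alone included Tmem176b (r = 0.996), Vav2 (0.996), Pea15a (0.994), Tnfrsf11a (0.990) and the lysosomal protease gene Lgmn (0.988). Those most like Mrc1 were others, with Kctd12b (0.993), the lectin gene Cd209d (0.989), the scavenger receptor gene Cd163 (0.984) and the chemokine gene Ccl7 (0.980) among the 10 highest. Cd163 was at 0.404, 2.08, 53.5 and 27.6 CPM in PyMT TANs and at 18.5, 6.45, 16.7 and 3.83 CPM in PyMT-Cxcr2-/- TANs, with replicates 1 and 2 of PyMT TANs low and 3 and 4 high as for Mrc1. Folr2, a folate receptor gene, had 7, 2, 123 and 194 counts in the PyMT TAN libraries and 0 in each WT BM library. Those most like Csf1r included Dok1 (0.981) and Eif4g1 (0.961).

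C1qb, Mrc1 and Csf1r were also set against the summed level of each of the 9 lists of cell type markers, 27 relations chosen after seeing the data, with the same centring and test. None had an adjusted p under 0.05 in the exact permutation test. The strongest relation of C1qb was with the neutrophil markers (r = -0.77, rho = -0.45, p = 0.0382, adjusted p = 0.516 and 0.797 for rho, exact permutation tests), and it was 0.017 without the 2 libraries farthest from the median. Mrc1 had r = 0.86 with the monocyte markers (rho = 0.83, adjusted p = 0.723, exact permutation test), 0.82 with the epithelial markers (rho = 0.81, adjusted p = 0.723) and 0.78 with the fibroblast markers (rho = 0.76, p = 0.00868, adjusted p = 0.234), and these were 0.75, 0.70 and 0.74 without the 2 farthest libraries. The epithelial sum was low in PyMT TAN replicates 1 and 2 and high in replicates 3 and 4, as was Mrc1. The part of any other cell type in these relations was not tested.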

How the data were processed

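RNA-seq libraries of sorted neutrophils from 3 groups of 4 samples were used. The authors depleted ribosomal RNA, made directional libraries, sequenced paired-end reads of 150 bases, ran FastQC and trimming, used STAR with mm10 for alignment and HTSeq for counting, and the deposited values are raw counts per gene. The annotation release and the strand setting are not given in the sources used here. HTSeq classes that name no gene, 46.3% to 60.5% of the total, were left out of library sizes. Of 55335 identifiers, 55154 matched GENCODE M21, which gave symbols, coordinates and exon lengths.

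Each comparison was fitted on its 2 groups with edgeR 4.0.16 in R 4.3.3 (TMM, filterByExpr, robust quasi-likelihood test, Benjamini-Hochberg over all genes tested). SE equals the log2 fold change over the root of F. The CPM used TMM factors over 12 libraries, and log2 CPM a prior count of 2. Correlations were tested by two-sided exact permutation in Python 3.11.15. Alternatives were other normalization factors, library totals, no filter on low counts, 12 libraries in one fit, the replicate number as a block, a correction for GC content and gene length, DESeq2 1.42.0, other thresholds, Spearman's rho, no centring and each library left out in turn. Only the edgeR test of PyMT-Cxcr2-/- against PyMT TANs was run on simulated counts, and the other procedures were not. Named genes are the members, genes of fixed lists, and the 10 other genes most like the members' mean at a mean log2 CPM of at least 1. Genes most like C1qb, Mrc1 or Csf1r alone were named after their values were seen. The members and lists were chosen with earlier results of these data known. Between samples of 1 group, counts differed by more than sampling noise in all 18 pairs (chi-square per degree of freedom 22.6 to 134.4).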

Additional observations from a re-analysis of the deposited data

Results flagged for a closer look

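Of 34 groups of 4 values examined, 1 had a library far from the other 3, and chance alone would give about 1 in 20 such groups. This was Ms4a7 in PyMT TANs, with 37.6 CPM in replicate 1 and 99.7, 106.5 and 108.1 CPM in the others, so that the gap to the nearest library was 0.880 of the whole range (above 0.829, Dixon's 95% critical value for 4 values). The same library was the lowest of its group for 9 of the 10 members.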

How the results depend on the processing

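All 10 members were called higher than in WT BM neutrophils in both comparisons under every alternative, including each library left out in turn. Between the genotypes, 1 member, Ms4a6d, was called with all 12 libraries in one fit and with DESeq2, and 0 when any library was left out. Over all genes, 365 were called between the genotypes, against 597 with library totals only, 594 with no filter on low counts, 886 with 12 libraries in one fit, 1035 with DESeq2, 91 with the GC and length correction and 19 at an adjusted p under 0.01. Leaving out 1 library gave 23 to 513 genes, with 23 without PyMT TAN replicate 2, 189 without replicate 4, and 213, 227, 83 and 96 without PyMT-Cxcr2-/- TAN replicates 1, 2, 3 and 4. Same-numbered libraries did not deviate together on average (mean correlation -0.042, from -0.208 to 0.087). Differently numbered libraries had a mean of 0.014, from -0.338 to 0.318. The labels do not say what the numbers stand for, and whether they mark a shared batch was not tested. A fit with the replicate block called 13 genes, or 32 with the GC and length correction as well.

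Members that did not pass the test between the genotypes changed sign in some settings. Mrc1 was at 0.25 on the log2 scale with the replicate block, 0.22 with the block and the correction and between -0.77 and 0.14 with 1 library left out. Mertk was at 0.067, 0.024 and between -0.38 and 0.23 in these settings. Csf1r was at 0.0086 with RLE factors, 0.019 with no filter, 0.011 with DESeq2 and between -0.15 and 0.062 with 1 library left out. Cd68 was at -0.082 with library totals, -0.15 with the correction, -0.068 with the block and the correction and between -0.028 and 0.26 with 1 left out, and C1qc was between -0.44 and 0.0046. The cause was not tested. The 21 pairs of members with an adjusted p under 0.05 were 7 by Spearman's rho, 0 without the 2 farthest libraries (r of C1qb and Mrc1 -0.31) and 0 to 26 with 1 library left out, with 0 without PyMT TAN replicate 1, 9 without replicate 3, and 7, 7, 13 and 13 without PyMT-Cxcr2-/- TAN replicates 1, 2, 3 and 4. Fewer libraries give fewer arrangements and a higher smallest p in the exact permutation test. A count of 0 therefore does not show that r fell. Without the 2 farthest libraries, r of the 3 C1q pairs was still 0.963 to 0.972.

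Library totals moved the median log2 fold change of all genes by 0.44 in PyMT TANs against WT BM neutrophils, 0.18 in PyMT-Cxcr2-/- TANs and -0.19 between the genotypes, and the GC and length correction by -0.24, -0.48 and -0.09. The share of called genes that were higher was 56.4%, 57.9% and 69.9% in these comparisons, 72.8%, 65.2% and 34.5% with library totals, 45.6%, 39.5% and 57.1% with the correction, 42.6%, 39.1% and 37.5% with the block and the correction, and 30.8% between the genotypes with the block alone. Depth limits the bone marrow side, where Ms4a7 had 10 counts in all.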
